A study of Mus musculus with 6 samples.

Results

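The genes of glycolysis, of lactate production and export, of pyruvate entry into mitochondria and of the pentose phosphate pathway were followed across 6 RNA-seq libraries of macrophages from injured mouse muscle. The list held 34 genes, picked by symbol, and all 34 were found among the 53774 named lines of the deposited gene table. The cells were sorted as CD45+F4/80+ from skeletal muscle damaged with BaCl2, a salt that kills muscle fibres and starts regeneration, and were collected 3 days after injury. Every library came from mice of one genotype, Cx3cr1-CreER with Manf fl/fl, which carry a tamoxifen-inducible Cre driven by the Cx3cr1 promoter and floxed copies of Manf, the gene of a secreted protein of the endoplasmic reticulum stress response. The 3 control libraries came from mice given oil, and the 3 libraries labelled as Manf knockout came from mice given tamoxifen. Both groups therefore carried the Cre and the floxed alleles, and tamoxifen itself was given to 1 group only. Neither the age of the mice nor whether a library came from 1 animal or a pool is recorded in the labels, so the p-values measure the spread between these libraries, which may be technical.

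Glycolysis splits glucose into pyruvate in the cytosol and yields ATP without oxygen. Pyruvate then either becomes lactate, which leaves the cell through monocarboxylate transporters, or enters mitochondria, where pyruvate dehydrogenase feeds it into the tricarboxylic acid cycle. The pentose phosphate pathway branches off at glucose 6-phosphate and supplies NADPH and ribose. Macrophages activated by inflammatory signals are known for a high glycolytic rate and lactate release, and hypoxia-inducible factor 1 is a well-known activator of many of these genes.

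The level of Manf did not separate the 2 groups. It was 29.5, 33.0 and 31.4 FPKM in oil 1, 2 and 3 and 18.1, 42.5 and 37.98 FPKM in tamoxifen 1, 2 and 3 (log2 fold change -0.02, SE 0.29). FPKM counts sequenced fragments relative to the length of the gene and to the size of the library. Tamoxifen 2 and 3 were above every oil library, against their knockout label, and the treated group is named by its label in what follows. Because a gene-level value includes reads from exons that the Cre does not remove, it does not show whether MANF protein was lost. The depth recovered from the table was 18120333 to 25544666 reads per library. Adgre1, which encodes F4/80, was at 353 ± 27.8 FPKM with oil and 329 ± 35.1 FPKM with tamoxifen (SD, n = 3 each), and Ptprc, which encodes CD45, at 50.7 ± 3.60 and 39.0 ± 6.88 FPKM. Cx3cr1, whose promoter drives the Cre, was at 51.7, 42.7 and 51.0 FPKM with oil and at 31.3, 9.82 and 24.6 FPKM with tamoxifen.

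Across the whole table, 10920 lines averaging 1 FPKM or more were tested with limma-trend on log2(FPKM + 1), and 0 (0%) had a Benjamini-Hochberg adjusted p under 0.05. At an unadjusted p under 0.05, 1440 genes were higher with tamoxifen (13.2%) and 1283 lower (11.7%), and limma-voom on recovered reads also called 0 genes, with 2566 of 9921 at an unadjusted p under 0.05. Tamoxifen 1 stood apart from tamoxifen 2 and 3. With that library left out, 1901 genes (17.4%) rose and 1583 (14.5%) fell at an adjusted p under 0.05, and that fit compares 2 libraries with 3. Of the fits that leave out 1 library, this one was singled out from the values themselves. Its adjusted p-values, here and below, are therefore descriptive. Leaving out any other single library gave 0 member calls.

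Of the 34 members, all of which passed the filter on low values, 0 were called with 6 libraries in either direction. The smallest adjusted p was 0.149, for Slc2a6, and limma-voom also called 0 of the 32 members that could be tested. By limma-voom, 14 of these 32 were at an unadjusted p under 0.05 in either direction, against 2566 of all 9921 genes. In the limma-trend fit, 12 members were higher at an unadjusted p under 0.05 (35.3%, against 13.2% of all genes tested) and 2 were lower (5.88%, against 11.7%). Every library labelled tamoxifen exceeded every oil library in 13 members (38.2%, against 16.2% of all genes) and below them in 2 members (5.88%, against 13.8%). The fitted fold change was above 0 in 25 members (73.5%) and below 0 in 9 (26.5%), compared with 53.7% and 46.3% of all genes, and its median was 0.17 on the log2(FPKM + 1) scale, compared with 0.02. In bulk RNA, a change in the number of cells of a type and a change in RNA per cell cannot be told apart.

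Manf was at 18.1 FPKM in tamoxifen 1, below every oil library, and at 42.5 and 37.98 FPKM in tamoxifen 2 and 3. The fit without tamoxifen 1 thus keeps only treated libraries with Manf above the oil libraries. When tamoxifen 1 was left out, 16 members rose (47.1%, against 17.4% of all genes) and 4 fell (11.8%, against 14.5%). Those that rose were Slc2a1, Slc2a6, Hk1, Gpi1, Pfkp, Aldoa, Pgk1, Eno1, Pkm, Ldha, Slc16a1, Slc16a3, Pdha1, Pgd, Tkt and Rpia. Those that fell were Pfkm, Pfkfb3, Pfkfb4 and Ldhb. The median log2 fold change of the members was then 0.22, and that of all genes 0.03. Tamoxifen 1 lay within the range of the oil libraries in 12 members, and in 25 members it was nearer to the oil mean than both tamoxifen 2 and tamoxifen 3. The median difference from the oil mean over the members was 0.08 in tamoxifen 1, 0.20 in tamoxifen 2 and 0.21 in tamoxifen 3 on the log2(FPKM + 1) scale. An exact two-sided permutation test of a single member with 3 libraries against 3 cannot give a p below 0.1, which it reached in the 15 members without overlap.

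**Figure D1:**
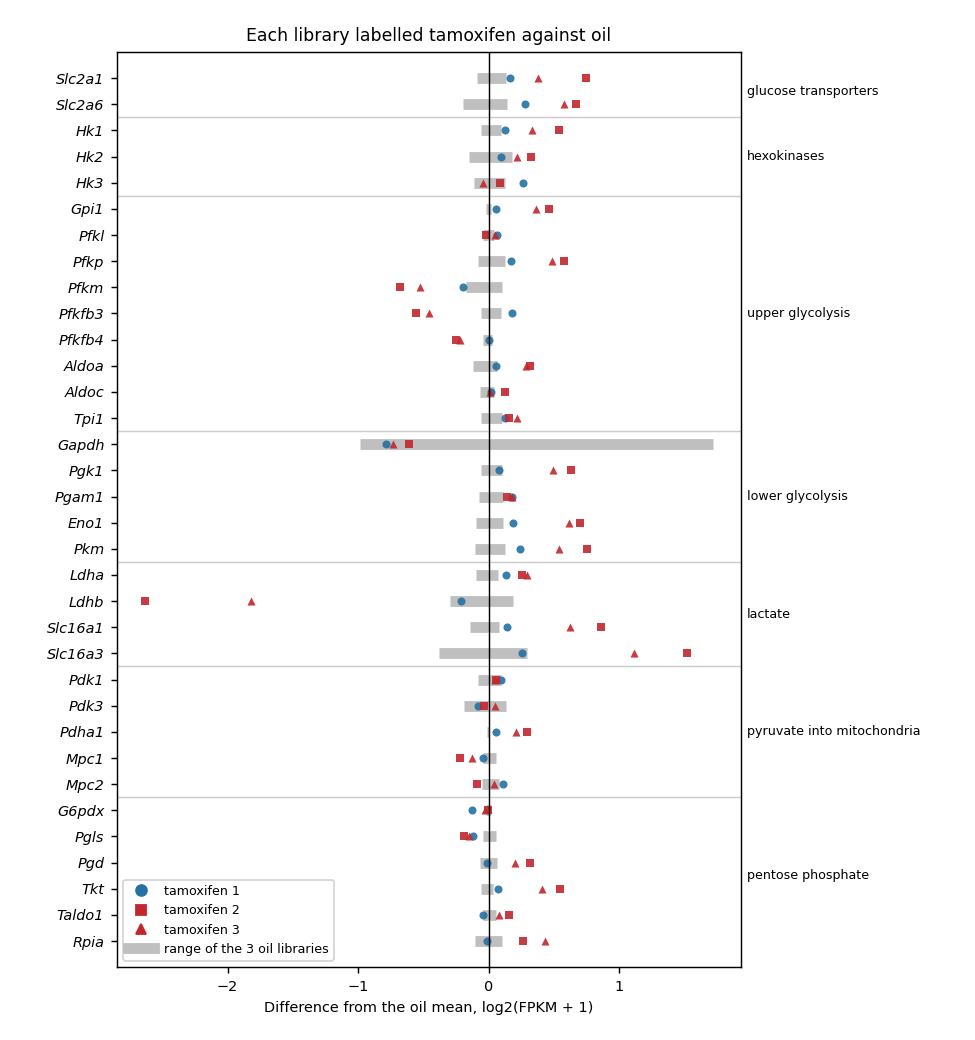
Difference of each library labelled tamoxifen from the oil mean for each of the 34 genes, on the log2(FPKM + 1) scale; each point is 1 library, shapes mark tamoxifen 1, 2 and 3, and the grey bar is the range of the 3 oil libraries. In 25 genes tamoxifen 1 is the library nearest to the oil mean, and Ldhb in tamoxifen 2 and 3 lies farthest to the left.

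By level, which FPKM allows to be compared between genes because it is per length, the list spanned from Pkm at a mean of 353 FPKM over the 6 libraries to Aldoc at 1.67 FPKM. Pkm exceeded every other member in each library, and was followed by Aldoa at 253 FPKM, Pgk1 at 172 FPKM, Ldha at 166 FPKM, Pgam1 at 152 FPKM and Eno1 at 143 FPKM. Ldha and Pgk1 overlapped in their libraries, as did Pgam1 and Eno1, so those neighbours are not separated beyond their spread. Summed over the 34 genes, the list held 1702, 1846 and 1735 FPKM with oil and 1902, 2344 and 2202 FPKM with tamoxifen. That sum was 0.521%, 0.587% and 0.546% of all FPKM with oil and 0.589%, 0.717% and 0.693% with tamoxifen.

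**Figure D2:**
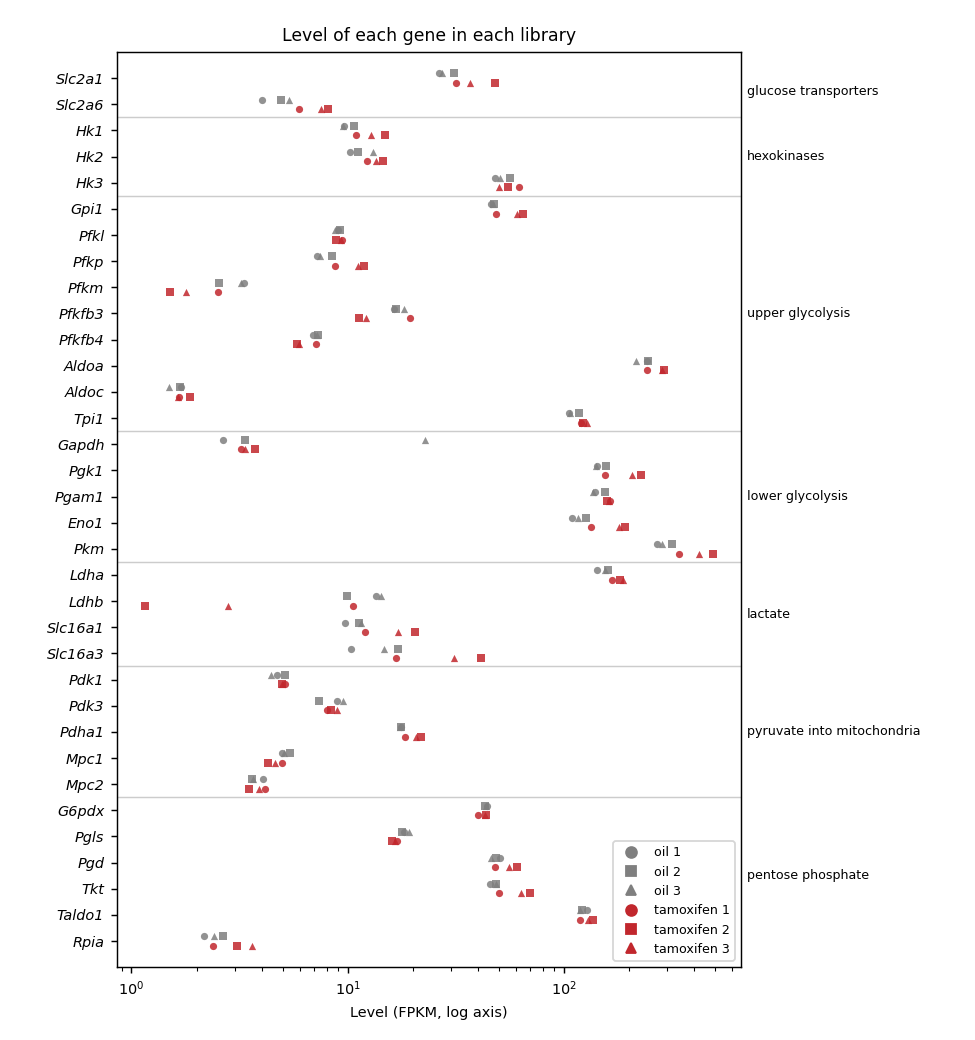
Level of each of the 34 genes in each of the 6 libraries, in FPKM on a log axis, grouped by role; each point is 1 library. Pkm is at the top of the scale with a mean of 353 FPKM, and 1 oil library stands apart for Gapdh at 22.8 FPKM.

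The largest fitted differences of the list in either direction were those of Slc16a3 and Ldhb, both genes of lactate handling. The 250 bases before the start sites of the lactate genes are shown for this reason, together with the glucose transporter Slc2a1. The sequences are from RefSeq in GRCm38.p6, in which all 34 members had an entry, and are written 5′ to 3′ on the strand of the gene. Capitals mark ACGTG and GCGTG, the core letters of the hypoxia response element, on either strand, where they read CACGT and CACGC. Ldha has 2 start sites in that table, and both windows are given.
Slc16a3, chr11:120948817-120949066, plus strand: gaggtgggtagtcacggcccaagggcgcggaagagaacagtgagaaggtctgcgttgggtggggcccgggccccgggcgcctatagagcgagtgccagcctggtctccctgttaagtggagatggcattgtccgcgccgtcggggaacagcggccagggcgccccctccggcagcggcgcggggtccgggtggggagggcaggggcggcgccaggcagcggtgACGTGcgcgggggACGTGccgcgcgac
Slc16a1, chr3:104638414-104638663, plus strand: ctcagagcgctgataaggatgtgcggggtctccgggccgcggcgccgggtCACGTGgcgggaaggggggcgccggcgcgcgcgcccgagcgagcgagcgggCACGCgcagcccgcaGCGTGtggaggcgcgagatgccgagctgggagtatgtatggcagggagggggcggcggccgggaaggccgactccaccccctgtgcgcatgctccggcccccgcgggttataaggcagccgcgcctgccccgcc
Slc2a1, chr4:119108495-119108744, plus strand: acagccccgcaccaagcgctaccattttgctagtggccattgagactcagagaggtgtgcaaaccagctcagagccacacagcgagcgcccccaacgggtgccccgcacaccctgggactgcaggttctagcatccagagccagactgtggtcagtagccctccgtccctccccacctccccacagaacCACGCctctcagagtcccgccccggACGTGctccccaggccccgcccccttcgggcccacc
Ldha, chr7:46845554-46845803, plus strand: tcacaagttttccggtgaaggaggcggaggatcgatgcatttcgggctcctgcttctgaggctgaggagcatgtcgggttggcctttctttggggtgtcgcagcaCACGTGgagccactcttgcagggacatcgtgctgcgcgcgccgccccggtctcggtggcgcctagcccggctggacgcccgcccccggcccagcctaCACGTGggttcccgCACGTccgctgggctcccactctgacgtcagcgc
Ldha, chr7:46846832-46847081, plus strand: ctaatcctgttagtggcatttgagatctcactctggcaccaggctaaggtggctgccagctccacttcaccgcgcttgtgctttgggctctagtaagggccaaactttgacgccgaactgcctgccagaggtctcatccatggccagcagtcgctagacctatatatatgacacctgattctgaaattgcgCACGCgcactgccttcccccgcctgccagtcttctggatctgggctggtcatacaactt
Ldhb, chr6:142507958-142508207, minus strand: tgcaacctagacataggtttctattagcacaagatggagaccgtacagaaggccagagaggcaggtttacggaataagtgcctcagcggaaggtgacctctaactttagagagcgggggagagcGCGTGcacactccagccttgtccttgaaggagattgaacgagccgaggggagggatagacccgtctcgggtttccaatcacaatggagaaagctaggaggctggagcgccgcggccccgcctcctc

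In the Slc16a3 window, ACGTG stood 27 and 14 bases before the start site, and the Ldhb window held no ACGTG and a single GCGTG at 126 bases before it. ACGTG on either strand was found in 13 members (38.2%) and in 18.5% of the 27025 genes with a window of the same length. GCGTG was found in 26 members (76.5%), compared with 30.9% of genes, and at least one of these cores in 32 members (94.1%), compared with 41.5%. The E-box CACGTG, which contains ACGTG on both strands, was found in Ldha, Pfkfb3, Pfkm and Slc16a1, or 11.8% of members compared with 6.86% of genes. The AP-1 motif TGACTCA, read as TGAGTCA on the other strand, was found in Aldoa alone, or 2.94% of members compared with 5.16% of genes. A gene counted when any of its windows held the motif. Several members, among them Pfkm, Aldoa and Eno1, have more than 1 window, and all 27025 genes together have 32851. The member windows were richer in G and C, with a median of 61.2% compared with 52.4% over all windows. How far the number of windows or the base content accounts for the share of motifs was not tested. Members higher and members lower with tamoxifen both held the cores, and a match is only a match of letters.

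Slc16a3 encodes MCT4, the transporter that exports lactate from glycolytic cells. Its level was 10.4, 17.2 and 14.7 FPKM in oil 1, 2 and 3 and 16.7, 41.5 and 31.0 FPKM in tamoxifen 1, 2 and 3. Tamoxifen 2 and 3 were above every oil library and tamoxifen 1 lay within the oil range, so the groups overlapped. The means were 14.1 ± 3.43 and 29.8 ± 12.5 FPKM (SD, n = 3 each), a ratio of 2.11, and the limma-trend log2 fold change was 0.96 (SE 0.33, adjusted p = 0.161). With tamoxifen 1 left out it was 1.32 (adjusted p = 0.0082). Slc16a1 encodes MCT1, which carries lactate and pyruvate in either direction. Its level was 9.68, 11.3 and 11.5 FPKM with oil and 12.02, 20.5 and 17.2 FPKM with tamoxifen, without overlap between the groups. The log2 fold change was 0.54 (SE 0.18, adjusted p = 0.159), and 0.74 without tamoxifen 1 (adjusted p = 0.0060). The 2 transporters together were at 20.1, 28.5 and 26.2 FPKM with oil and at 28.7, 62.0 and 48.2 FPKM with tamoxifen.

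Ldha encodes the lactate dehydrogenase subunit that favours the step from pyruvate to lactate, and Ldhb the subunit that favours the reverse step. Ldha was at 142, 160 and 155 FPKM with oil and 167, 182 and 187 FPKM with tamoxifen. The groups did not overlap, and the log2 fold change was 0.23 (SE 0.08, adjusted p = 0.174). Ldhb was at 13.5, 9.88 and 14.2 FPKM with oil and 10.6, 1.16 and 2.79 FPKM with tamoxifen. Tamoxifen 2 and 3 lay far below every oil library, and tamoxifen 1 fell inside the oil range. The log2 fold change of Ldhb was -1.55 (SE 0.56, adjusted p = 0.169), and without tamoxifen 1 it was -2.22 (adjusted p = 0.0034), the smallest adjusted p of any member in that fit. The recovered reads of Ldhb were 392, 302 and 570 with oil and 366, 33 and 103 with tamoxifen, so the low values rest on few reads. Ldhb made up 8.65%, 5.81% and 8.39% of the summed FPKM of Ldha and Ldhb with oil and 5.96%, 0.634% and 1.47% with tamoxifen. The ratio of Ldha to Ldhb was 10.6, 16.2 and 10.9 with oil and 15.8, 157 and 66.9 with tamoxifen.

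**Figure D3:**
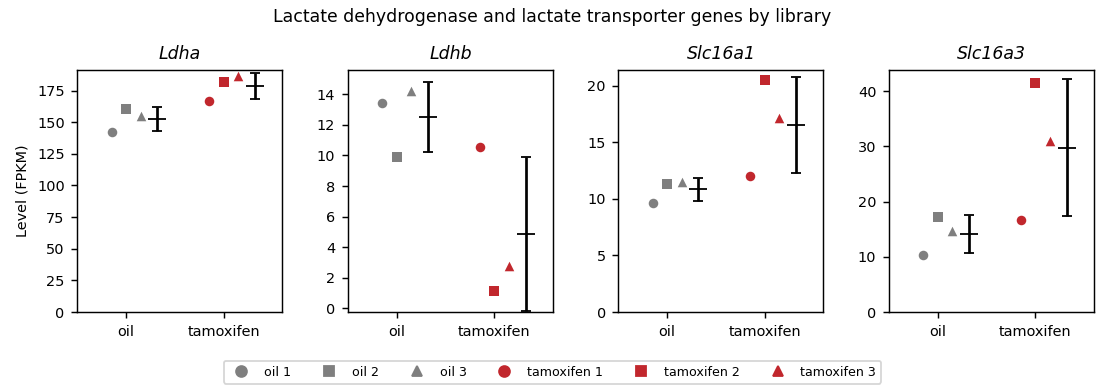
Levels of Ldha, Ldhb, Slc16a1 and Slc16a3 in FPKM in the 3 oil and the 3 tamoxifen libraries; points are libraries, and the bar and error bar are the mean and SD (n = 3). Ldhb in tamoxifen 2 and 3 is at 1.16 and 2.79 FPKM, below the lowest oil library at 9.88 FPKM, while Slc16a3 in the same libraries is at 41.5 and 31.0 FPKM, above the highest oil library at 17.2 FPKM.

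Markers of other cell types also differed between tamoxifen 1 and tamoxifen 2 and 3. The summed FPKM of the neutrophil markers, of which 8 of 11 were measured, was 51.5 to 54.99 with oil and 56.3, 368 and 113 in tamoxifen 1, 2 and 3. Here and below, measured means a mean of 1 FPKM or more, and each sum of markers covers every gene of its list. S100a8, the highest gene of that list by its sum over the 6 libraries, was at 1.52 to 3.04 FPKM with oil. It was at 4.12, 154 and 40.4 FPKM with tamoxifen, whereas Ly6g was at 0 in all libraries but tamoxifen 2, at 0.176 FPKM. S100a9 and Lcn2 were also high in tamoxifen 2 and 3, at 120 and 25.5 FPKM and at 33.6 and 8.59 FPKM. The list was not uniform, since Csf3r, the receptor for the neutrophil growth factor G-CSF, was at 27.3 to 28.7 FPKM with oil and at 30.3, 15.2 and 14.6 FPKM with tamoxifen. In every oil library and in tamoxifen 1, Csf3r was above S100a8. Csf3r fell without tamoxifen 1 (log2 fold change -0.87, adjusted p = 0.0025), and Mpo, Mmp9 and Retnlg were not called in either fit. The dendritic cell list, of which 2 of 6 markers were measured, summed to 31.6 to 45.8 FPKM with oil and to 31.7, 18.6 and 22.3 FPKM with tamoxifen, mostly from Itgax. Of that list Cd209a, the dendritic cell lectin, was at 3.41 to 6.16 FPKM with oil and at 2.12, 0.697 and 1.18 FPKM with tamoxifen, and Zbtb46, Clec9a, Xcr1 and Flt3 were under the filter. The part of either cell type in the changes of Ldhb, Slc16a3 or any other member was not tested. Muscle fibre markers, of which 4 of 12 were measured, summed to 8.74 to 13.4 FPKM with oil and 5.13 to 7.07 FPKM with tamoxifen, with Pygm at 0 throughout. Of the remaining lists, fibroblast markers (4 of 6 measured) summed to 22.1 to 24.4 FPKM with oil and to 15.01, 36.1 and 27.9 FPKM with tamoxifen. Endothelial, erythroid and lymphocyte markers summed to at most 6.79, 4.25 and 2.31 FPKM in any library, with 3 of 5, 1 of 6 and 1 of 6 measured. Macrophage and sort genes summed to 10774 to 12460 FPKM with oil and 8584 to 9704 FPKM with tamoxifen, mostly from Lyz2. Its genes differed in direction, with 6 of 8 below 0 in fold change and 2 above. The mean of Csf1r was 410 FPKM with oil and 286 FPKM with tamoxifen, and that of Mertk 54.7 and 35.5 FPKM. The mean of Itgam was 49.5 and 76.6 FPKM, and that of Fcgr1 129 and 157 FPKM.

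Among the glucose transporters, both members were higher in each library labelled tamoxifen than in any oil library. Slc2a1 encodes GLUT1, the main glucose carrier of macrophages, and was at 26.5, 31.1 and 27.4 FPKM with oil and 31.7, 48.2 and 37.0 FPKM with tamoxifen. Tamoxifen 1 exceeded the highest oil library only slightly. The log2 fold change was 0.43 (SE 0.15, adjusted p = 0.167), and 0.56 without tamoxifen 1 (adjusted p = 0.021). Slc2a6 encodes GLUT6, a transporter of leukocytes that resides on internal membranes. It was at 4.01, 4.93 and 5.33 FPKM with oil and 5.95, 8.13 and 7.55 FPKM with tamoxifen, with a log2 fold change of 0.51 (SE 0.13, adjusted p = 0.149).

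Hexokinases trap glucose in the cell by phosphorylating it. Hk3 was the most abundant, with 69.2% to 72.0% of the summed hexokinase FPKM in the oil libraries and 72.8%, 65.0% and 65.5% in tamoxifen 1, 2 and 3. Its own level overlapped between groups, at 51.7 ± 4.36 FPKM with oil and 55.7 ± 6.13 FPKM with tamoxifen (SD, n = 3 each). Hk1, the broadly expressed hexokinase that binds mitochondria, was at 9.63, 10.7 and 9.51 FPKM with oil and 10.96, 14.9 and 12.8 FPKM with tamoxifen. It was the hexokinase whose groups did not overlap, with a log2 fold change of 0.34 (SE 0.12, adjusted p = 0.162). Hk2, the inducible hexokinase, was at 11.5 ± 1.46 and 13.5 ± 1.17 FPKM and its groups overlapped.

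In upper glycolysis, 6 of 9 genes had a fold change above 0, and the 3 below 0 all concerned fructose phosphorylation. Gpi1, which converts glucose 6-phosphate to fructose 6-phosphate, was at 46.2, 47.3 and 46.8 FPKM with oil and 48.7, 64.7 and 60.6 FPKM with tamoxifen. The oil libraries lay close together and every tamoxifen library was above them (log2 fold change 0.30, SE 0.11, adjusted p = 0.176). Aldoa, the aldolase of most cells, was at 241, 244 and 215 FPKM with oil and 242, 291 and 285 FPKM with tamoxifen, so tamoxifen 1 lay within the oil range. The table has a further line named Aldoa, a short annotated gene with 7 to 19 reads, which was not used. Tpi1, which interconverts the triose phosphates, was at 105 to 117 FPKM with oil and 120 to 128 FPKM with tamoxifen (log2 fold change 0.17, adjusted p = 0.222). Aldoc, the aldolase best known from brain, was at 1.62 ± 0.108 and 1.72 ± 0.122 FPKM.

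Phosphofructokinase commits the sugar to glycolysis and is built from liver, platelet and muscle type subunits, encoded by Pfkl, Pfkp and Pfkm. Pfkp was at 7.23, 8.503 and 7.41 FPKM with oil and 8.78, 11.96 and 11.2 FPKM with tamoxifen, for a log2 fold change of 0.41 (SE 0.12, adjusted p = 0.153). Pfkm was at 3.31, 2.55 and 3.22 FPKM with oil and 2.50, 1.504 and 1.79 FPKM with tamoxifen, for a log2 fold change of -0.47 (SE 0.15, adjusted p = 0.156). Neither gene overlapped between the groups, and they differed in opposite directions. Without tamoxifen 1, Pfkp rose by 0.53 (adjusted p = 0.0080) and Pfkm fell by 0.60 (adjusted p = 0.014) on the log2(FPKM + 1) scale. Pfkl differed by 0.03 (95% interval -0.13 to 0.19). The share of Pfkp in the summed FPKM of the 3 subunits was 37.0%, 41.9% and 38.3% with oil and 42.4%, 53.7% and 50.2% with tamoxifen. The share of Pfkm was 16.9%, 12.6% and 16.7% with oil and 12.1%, 6.75% and 8.002% with tamoxifen. In tamoxifen 2 and 3 Pfkp was the most abundant subunit, whereas in the other 4 libraries it was Pfkl. Muscle fibres express Pfkm strongly, and the muscle fibre markers given above were also lower with tamoxifen; their part in the Pfkm values was not tested.

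**Figure D4:**
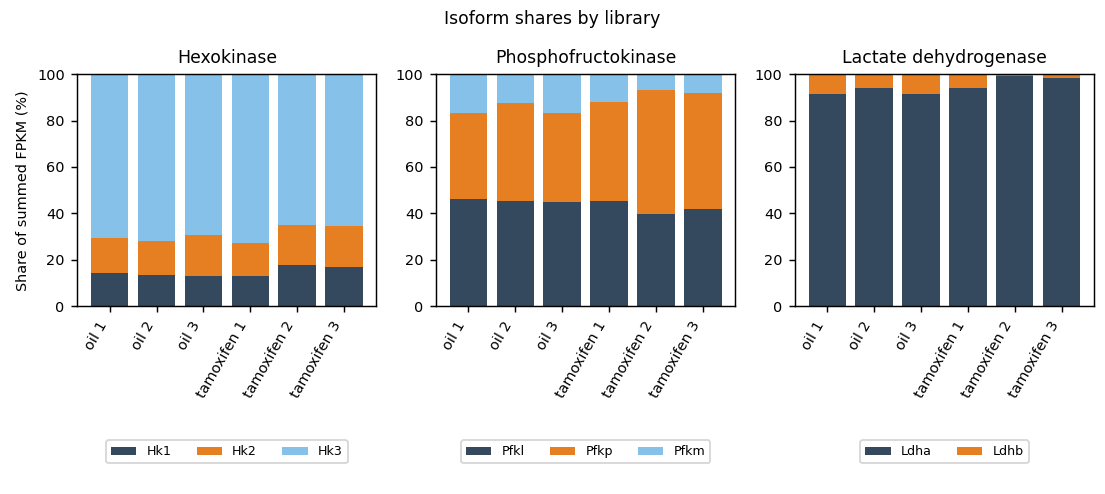
Share of each isoform in the summed FPKM of the hexokinases, the phosphofructokinases and the lactate dehydrogenases in each of the 6 libraries, in percent. Pfkp exceeds Pfkl in tamoxifen 2 (53.7%) and tamoxifen 3 (50.2%), and Ldhb is 0.634% and 1.47% of its pair in those libraries.

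Pfkfb3 and Pfkfb4 make fructose 2,6-bisphosphate, the allosteric activator of phosphofructokinase. Pfkfb3 was at 16.4, 16.6 and 18.3 FPKM with oil and at 19.5, 11.3 and 12.2 FPKM with tamoxifen. Tamoxifen 1 was the highest and the other 2 the lowest of the 6 libraries, and the log2 fold change with 6 libraries was -0.28 (SE 0.19, adjusted p = 0.373). Without tamoxifen 1 it was -0.51 (adjusted p = 0.0065). Pfkfb4 was at 6.88, 7.26 and 7.18 FPKM with oil and 7.12, 5.83 and 5.98 FPKM with tamoxifen, and its log2 fold change was -0.15 with 6 libraries and -0.23 without tamoxifen 1 (adjusted p = 0.041).

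Lower glycolysis yields the ATP and ends in pyruvate, and 4 of its 5 genes had a fold change above 0. Pkm, whose pyruvate kinase makes the final step, was at 269, 315 and 283 FPKM with oil and 341, 487 and 420 FPKM with tamoxifen. All 3 tamoxifen libraries were above the oil libraries, and tamoxifen 2 was the highest. The means were 289 ± 23.9 and 416 ± 73.3 FPKM (SD, n = 3 each), with a log2 fold change of 0.51 (SE 0.14, adjusted p = 0.152). Eno1, the enolase, was at 109, 127 and 116 FPKM with oil and 134, 191 and 180 FPKM with tamoxifen, likewise without overlap (log2 fold change 0.50, SE 0.15, adjusted p = 0.152). Pgk1, the phosphoglycerate kinase that makes the first ATP of the pathway, was at 142, 157 and 141 FPKM with oil and 155, 228 and 207 FPKM with tamoxifen. Tamoxifen 1 lay within the oil range of Pgk1, and the log2 fold change was 0.40 (SE 0.15, adjusted p = 0.170). Without tamoxifen 1, the log2 fold changes were 0.65 for Pkm (adjusted p = 0.0067), 0.66 for Eno1 (adjusted p = 0.0039) and 0.56 for Pgk1 (adjusted p = 0.0055). Pgam1, the phosphoglycerate mutase, was at 140, 154 and 136 FPKM with oil and 163, 158 and 162 FPKM with tamoxifen. Its tamoxifen libraries lay close together, and tamoxifen 1 was the highest of the 6 (log2 fold change 0.17, adjusted p = 0.226).

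Gapdh, the dehydrogenase of lower glycolysis and a common reference gene, was listed at 2.65, 3.36 and 22.8 FPKM with oil and 3.196, 3.74 and 3.34 FPKM with tamoxifen. These values were far below those of the neighbouring steps, and oil 3 stood alone. The log2 fold change of -0.71 (SE 0.66, adjusted p = 0.510) became 0.15 without oil 3. Gapdh has 79 other annotated genes with at least 95% identity over 200 or more aligned bases of its coding sequence, of which 75 are pseudogenes. The pseudogenes in the table summed to 34.4, 36.4 and 31.0 FPKM with oil and 36.1, 43.7 and 44.2 FPKM with tamoxifen, so the lines of the copies together exceeded Gapdh itself in every library. The highest, Gm7336, was identical over 1017 bases. How reads that match several places were assigned is not stated in the labels, and the level of Gapdh is therefore uncertain.

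Such copies were found for 9 members, namely Gpi1, Tpi1, Gapdh, Pgk1, Pgam1, Eno1, Ldha, Ldhb and Mpc1, and for none of the other 25. Eno1b, a copy of Eno1 with 99.4% identity over 1302 bases, was at 11.4, 13.0 and 12.1 FPKM with oil. It was at 14.5, 19.6 and 17.4 FPKM with tamoxifen, above the oil libraries in each tamoxifen library, as Eno1 was. Since the assignment of reads that match both is not known, the 2 lines may not be independent. Mpc1 encodes a subunit of the mitochondrial pyruvate carrier, and its copy Mpc1-ps, identical over 258 bases, was at 87.4, 85.9 and 78.5 FPKM with oil and 75.1, 61.2 and 57.2 FPKM with tamoxifen. The groups did not overlap for Mpc1-ps (log2 fold change -0.38, SE 0.11, adjusted p = 0.153). Mpc1 itself was at 4.97, 5.40 and 5.10 FPKM with oil and 4.97, 4.29 and 4.62 FPKM with tamoxifen, with a log2 fold change of -0.13 (adjusted p = 0.320). Most of the FPKM on the lines of this pair stood on the copy, and the level of Mpc1 is uncertain for the same reason.

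**Figure D5:**
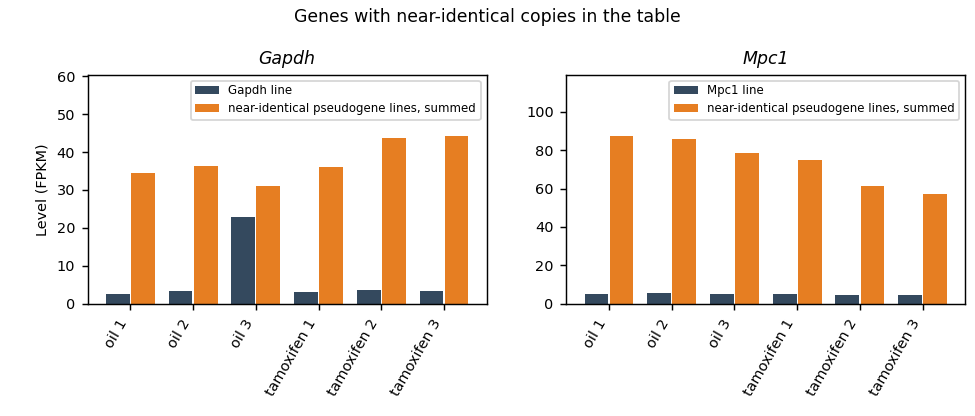
Level in FPKM of Gapdh and Mpc1 and the summed level on the lines of their near-identical pseudogenes, as bars from 0, in each of the 6 libraries. Gapdh is at 22.8 FPKM in oil 3 and at most 3.74 FPKM in the other libraries, while its pseudogene lines sum to 31.0 FPKM or more and at most 44.2 FPKM.

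Of the 5 genes that govern pyruvate in mitochondria, Pdha1 was the one whose groups did not overlap. Pdha1, a catalytic subunit of pyruvate dehydrogenase, was at 17.7, 17.7 and 17.5 FPKM with oil and 18.4, 21.8 and 20.6 FPKM with tamoxifen. The SD of its oil libraries was 0.112 FPKM (n = 3), and the log2 fold change was 0.19 (SE 0.08, adjusted p = 0.202), or 0.25 without tamoxifen 1 (adjusted p = 0.025). Pdk1 and Pdk3, kinases that switch the complex off, had log2 fold changes of 0.07 (95% interval -0.11 to 0.25) and -0.02 (95% interval -0.26 to 0.22). Mpc2, the other subunit of the pyruvate carrier, was at 3.78 ± 0.244 and 3.85 ± 0.334 FPKM (SD, n = 3 each).

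Of the 6 pentose phosphate genes, 4 had a fold change above 0 and 2 below. In the oxidative branch, G6pdx, the entry enzyme that makes NADPH, was at 44.3, 43.0 and 43.8 FPKM with oil and 39.9, 43.5 and 43.0 FPKM with tamoxifen, for a log2 fold change of -0.05 (95% interval -0.21 to 0.11). Pgls, the next enzyme, was at 18.3, 17.9 and 19.2 FPKM with oil and 16.9, 16.03 and 16.5 FPKM with tamoxifen, below the oil libraries in each case (log2 fold change -0.15, adjusted p = 0.203). Pgd, which makes NADPH again, was at 48.4 ± 2.19 and 54.7 ± 6.24 FPKM (SD, n = 3 each), with tamoxifen 1 inside the oil range. In the branch that rearranges sugars without NADPH, Tkt, the transketolase, was at 45.4, 48.5 and 48.6 FPKM with oil and 49.995, 69.7 and 63.4 FPKM with tamoxifen. The groups of Tkt did not overlap, with a log2 fold change of 0.34 (SE 0.13, adjusted p = 0.170) and of 0.48 without tamoxifen 1 (adjusted p = 0.0061). Taldo1, the transaldolase, was at 123 ± 4.20 and 128 ± 8.85 FPKM, and Rpia, which makes ribose 5-phosphate, at 2.41 ± 0.237 and 3.02 ± 0.613 FPKM (SD, n = 3 each). Without tamoxifen 1, Tkt, Pgd and Rpia rose and G6pdx, Pgls and Taldo1 were not called.

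Related genes outside the list were read in the same fits, in which 0 of them were called with 6 libraries. Of all genes tested, 53.7% had a fold change above 0 and 46.3% below 0. Without tamoxifen 1, 17.4% of all genes rose and 14.5% fell, the shares beside which the counts of the related lists stand. Of 12 measured genes for other isoforms and steps of glycolysis, 9 had a fold change below 0, and without tamoxifen 1 the calls were 2 higher and 3 lower. Slc16a7, which encodes the transporter MCT2, was at 4.63, 3.78 and 3.72 FPKM with oil and 3.68, 2.07 and 2.43 FPKM with tamoxifen, lower than the oil libraries throughout. The sugar transporters Slc2a8 and Slc2a9 had log2 fold changes of -0.48 and -0.28. Of 7 measured genes of the pyruvate dehydrogenase complex and its other regulators, 1 rose and 1 fell without tamoxifen 1. Smallest in p was Pdk2, another kinase that switches the complex off, which was at 3.14, 2.70 and 2.80 FPKM with oil and 1.92, 0.593 and 0.660 FPKM with tamoxifen. Its log2 fold change was -0.97 (SE 0.23, adjusted p = 0.147), with no overlap between the groups. Dlat, another subunit of the complex, had a log2 fold change of 0.30 and the phosphatase Pdp2 one of 0.22.

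Of 16 measured genes of the tricarboxylic acid cycle, 10 had a fold change above 0, compared with 53.7% of all genes. Without tamoxifen 1 the calls were 5 higher and 0 lower, compared with 17.4% and 14.5% of all genes. The malate dehydrogenase Mdh2 was at 35.1, 37.4 and 38.7 FPKM with oil and 41.9, 58.8 and 56.3 FPKM with tamoxifen (log2 fold change 0.47, adjusted p = 0.152), and Idh3a and Suclg1 had log2 fold changes of 0.55 and 0.26. Of 8 measured genes that make NADPH or use pentoses, 4 rose and 2 fell without tamoxifen 1. Prps1, which turns ribose 5-phosphate into the precursor of nucleotides, had a log2 fold change of 0.45, the epimerase Rpe one of 0.30, and Idh1, a cytosolic source of NADPH, one of -0.47. Prps2, the other Prps gene of that list, went the opposite way to Prps1, with -0.37 and no overlap between the groups. Of 8 measured glycogen and gluconeogenesis genes, 2 rose and 1 fell without tamoxifen 1, and the genes with the smallest p were Pgm1 at 0.33, Ugp2 at 0.21 and Pygl at -0.22 on the log2(FPKM + 1) scale.

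Of 11 measured regulators of glycolytic transcription, 8 had a fold change above 0, compared with 53.7% of all genes. Without tamoxifen 1 the calls were 2 higher and 1 lower, compared with 17.4% and 14.5% of all genes. Hif1a, the oxygen-sensitive subunit of hypoxia-inducible factor 1, was at 24.7, 23.3 and 24.6 FPKM with oil and 25.8, 34.3 and 32.3 FPKM with tamoxifen. Its groups did not overlap, with a log2 fold change of 0.33 (SE 0.11, adjusted p = 0.161). Mlx, the partner of the glucose-sensing factors, had a log2 fold change of 0.36, and Hif1an, which inhibits hypoxia-inducible factor 1, one of -0.16. These 3 genes had the smallest p of the list. Of its further hypoxia regulators, Egln1 and Egln2 were at 0.13 each, Arnt at 0.01, Vhl at -0.15 and Epas1 at -0.31. The protein of Hif1a is controlled mainly by its breakdown, which RNA levels do not show.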

How the data were processed

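The labels' protocols name the RNeasy Micro Kit for RNA extraction. The authors deposited 1 table of FPKM per gene for the 6 libraries, and the submitters' processing notes name the build GRCm38.p6. Which aligner and counter were used, and how reads with several matches were handled, is not given in the sources here. Lines without a gene name (382) or with a date in its place (27) were left out, 0.253% to 0.289% of FPKM, and 0 columns of other samples were present. Genes averaging 1 FPKM or more were tested as log2(FPKM + 1), unpaired, with limma-trend (limma 3.58.1, R 4.3.3), two-sided with Benjamini-Hochberg adjustment over 10920 lines; a fold change on this scale understates that of low genes. The code was tested on simulated data. Whole reads were recovered from FPKM and exon lengths of GENCODE M21; 95.0% to 95.3% of values of up to 1000 reads came out within 0.02 of a whole number, and limma-voom was run on the 9921 genes averaging 1 FPKM or more that were whole in every library, within 0.02 up to 1000 reads and within 0.1 above. Copies were sought with BLAST+ 2.17.0, at 95% identity and 200 bases. Tables and plots were made with Python 3.11.15, pandas 2.3.3, NumPy 2.4.6 and matplotlib 3.10.9. The genes named by rule were the 34 members, Manf, Ptprc, Adgre1 and Cx3cr1. Each related list gave its 3 measured genes of smallest unadjusted p, and each marker list its sum and highest gene. The copies, the other marker genes, Prps2 and the further regulators given after Hif1an were singled out after their values were seen. Members and lists were chosen with earlier results of these data known. Alternatives were another pseudocount, 2 other filters, 2 other scalings, no mean trend, a replicate block, limma-voom and leaving out each library.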

Additional observations from a re-analysis of the deposited data

How the results depend on the processing

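With 6 libraries, 0 of the members tested were called under any alternative that kept all libraries. All 34 members were tested, except that 28 were with a filter at 5 FPKM and 32 by limma-voom. The count of all genes called higher was 1 with a filter at 5 FPKM, and that of genes called lower was 1 without a filter and 4 with a filter at 5 FPKM. With a replicate block these counts were 11 and 22, and the members called stayed at 0. The numbers were not taken as pairs because nothing says that they mark a shared animal or day. After each gene's mean in its group was subtracted, same-numbered libraries correlated at 0.26, 0.09 and 0.0040. With 3 libraries a group, these values cannot settle whether the numbers mark pairs. Leaving out 1 library at a time gave 0 to 1901 genes called higher and 0 to 1583 lower, and 0 to 16 and 0 to 4 members, with the highest of each without tamoxifen 1. Genes without overlap were 1979 to 3675 higher and 1680 to 2985 lower in those fits, and members 13 to 20 and 2 to 6. The genes without overlap that were lower numbered 2554 without a filter and 876 at 5 FPKM. Members without overlap that were lower numbered 1 at 5 FPKM, where Pfkm was below the filter, and 4 under median-of-ratios or quantile scaling. Members without overlap that were higher numbered 13 under median-of-ratios scaling and fell to 9 under quantile scaling. Of all genes, 1646 and 1681 were higher without overlap under these scalings, and 1625 and 1520 were lower. In the fits that leave out 1 library, the sign turned for Gapdh without oil 3 (-1.20 to 0.15 over these fits), and for Pdk3 (-0.114 to 0.047) and Mpc2 (-0.025 to 0.074), both near 0 with 6 libraries. The cause of these shifts was not tested, beyond the fewer genes or libraries in each fit. The count of members with a fold change above 0 was 25 under each scaling. The median of all genes was 0.02, 0.0013 and 0.01 (log2) under the 3 scalings. Low counts limit Ldhb, at 33 reads in tamoxifen 2, and 3 libraries a group limit every test.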
